A study of Mus musculus with 11 samples.

Results

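The genes described here are 54 markers of dividing cells, 20 that act in copying DNA (replication genes) and 34 that act at the entry into and passage through mitosis (mitotic genes), out of 17097 genes measured. Each was found by its gene symbol among the probe sets that carry exactly 1 symbol, and a gene with several was represented by its brightest, judged on the mean of the 9 arrays from lacrimal gland. All 54 listed genes had a probe set. The T cells were taken from male NOD mice aged 16 weeks, an inbred strain whose lacrimal gland (LG) becomes inflamed through autoimmunity and which serves to model Sjögren's syndrome. Gland cells carrying CD4, all positive for TCRβ and negative for the dead-cell dye DAPI, were sorted into LG_naive (without surface PD-1 and ICOS), LG_eTconv (effector conventional) and LG_eTreg (effector regulatory), with 3 arrays each. The effector subsets were both high for PD-1 and ICOS, and the study's design text gives the same low CD73 and low CD200 gate for both. Unfractionated CD4 and CD8 T cells of spleens from these mice, which carried no allele or treatment beyond the strain, gave 1 array each (Spl_CD4 and Spl_CD8). The labels do not say whether replicate arrays came from separate mice or from pools, so a p-value here reflects no more than how far these samples spread, and that spread may be technical.

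A cell that divides first doubles its DNA in S phase and then shares it out in mitosis. Replication genes are mostly switched on by E2F factors at the end of G1, whereas mitotic genes peak later, in G2 and M, when repressor complexes that sit on their promoters give way to activating ones. In lymphocytes, resting naive cells keep most of this program low, and stimulated effector cells turn it on for clonal expansion.

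Values are log2 signals, in which a difference of 1 is a doubling. Array medians of all genes lay between 2.26 and 2.39, and the background limit of an array, the highest of its nonspecific control probe sets, from 0.945 to 1.70. Of the genes that mark the sorted cells, Foxp3, the lineage factor of regulatory T cells, read 8.13 to 8.21 on LG_eTreg and 3.61 to 4.85 on LG_eTconv. On LG_naive Foxp3 read 2.86, 4.04 and 4.95, so that LG_naive 3 lay above every LG_eTconv array. Pdcd1, which encodes PD-1, read 1.63 to 2.15 on LG_naive and 6.77 to 8.16 on the effector arrays. Icos, which encodes ICOS, did not show such a step. Its RNA was high on all LG_naive arrays, above the 8.38 of Spl_CD4 and up to 8.77. On the effector arrays Icos read 9.64 to 9.95. Cd4 read 8.35 to 9.02 on the gland arrays and 2.47 on Spl_CD8. Control probe sets set 3 arrays apart: the actin 3′ minus 5′ gap was 3.35 on LG_eTconv 1 (1.53 to 2.86 elsewhere), and the 18S probe set read 6.76 on LG_eTreg 3 and 6.15 on LG_naive 1 (3.57 to 5.34 elsewhere). Markers of other cells also differed between the groups. The summed linear signal of 8 dendritic cell markers was 787 to 1032 on LG_naive, 224 to 310 on LG_eTconv and 226 to 348 on LG_eTreg, with 6 of 8 called lower in each effector subset, 1 called higher in LG_eTreg, and Xcr1 at background in all. For 11 monocyte and macrophage markers the sums were 1021 to 1312, 669 to 691 and 708 to 848 (6 of 11 called lower in each), with Csf1r and Itgam at background. For 10 markers of the lacrimal epithelium they were 893 to 1468, 507 to 635 and 578 to 866 (4 and 2 of 10 called lower), with Krt19 and Cldn3 at background, and for 9 B and plasma cell markers 348 to 418, 186 to 287 and 95.6 to 168 (1 and 6 of 9 called lower), with Pax5 and Ighm at background. Sums of 8 CD8 T and natural killer cell markers were 165 to 168, 113 to 168 and 79.2 to 88.3 (2 and 1 of 8 called lower, 2 and 1 higher), with Ncr1 and Klrk1 at background, and those of 8 T cell markers 3005 to 3131, 3394 to 3800 and 3517 to 4017. The part of these cells, of the array controls and of RNA integrity in the differences below was not tested.

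Of the 54 genes 19 were higher in both effector subsets than in LG_naive, 14 mitotic and 5 replication genes. Another 25 were called in neither. Over all genes 6.45% were called higher in LG_eTconv and 6.20% in LG_eTreg. The share of all genes called in both, or in neither, was not counted. Levels in LG_naive ran from background to 9.04, the mean of Pcna. The background limit was exceeded by 28 genes on all 9 gland arrays, and by Kif23, a kinesin of the central spindle, on none. At background on all 3 LG_naive arrays were 13 genes, 12 of them mitotic or spindle genes (Aurkb, Bub1, Bub1b, Ttk, Kif11, Kif23, Kif4, Cenpe, Cenpf, Tpx2, Nusap1 and Hmmr) and the other the cohesion gene Esco2. LG_eTconv had 3 such genes (Esco2, Aurkb and Kif23) and LG_eTreg had 2 (E2f1 and Kif23). Since these are bulk samples, fewer dividing cells and less of each RNA per dividing cell cannot be told apart.

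**Figure D1:**
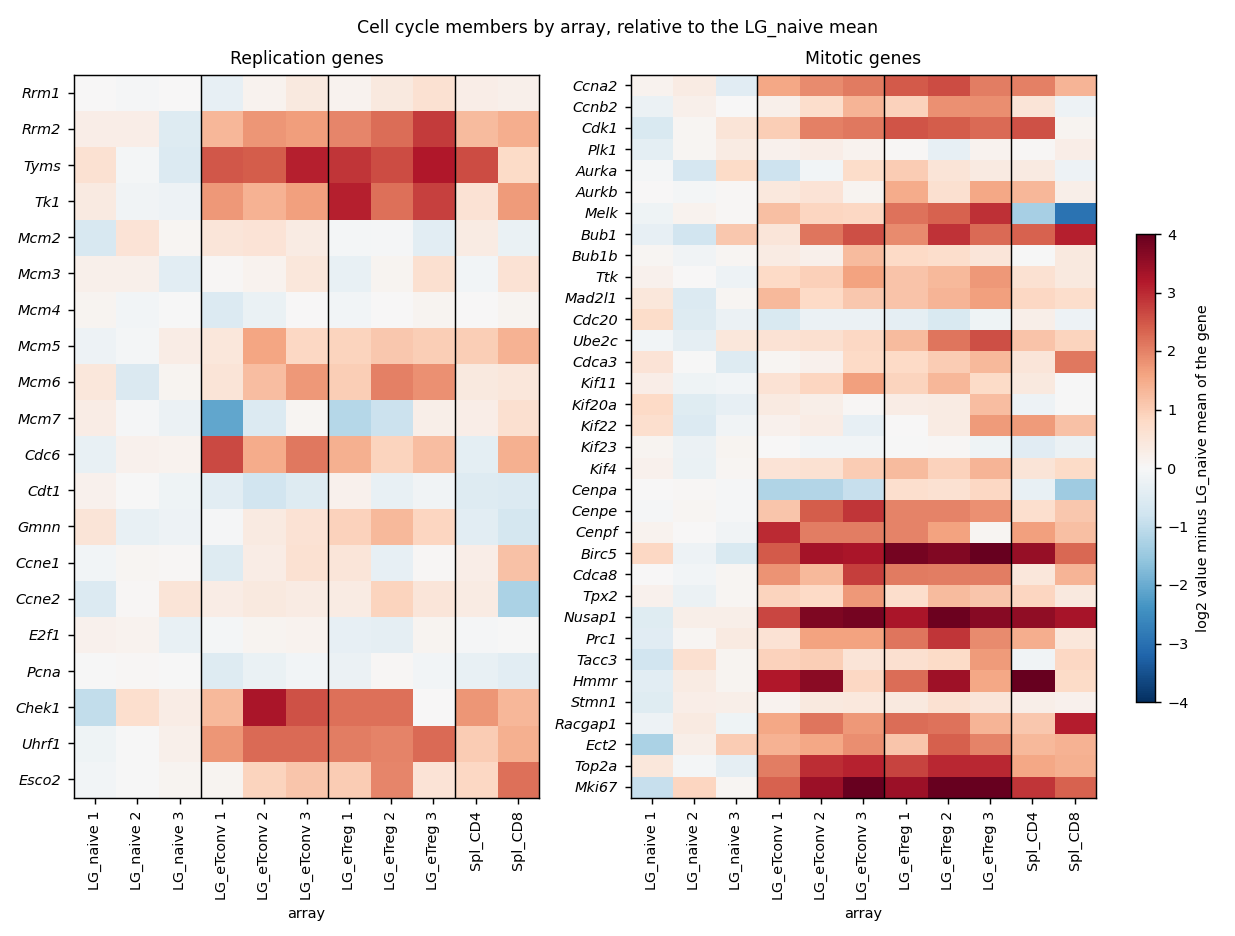
Heat map of the 20 replication genes (left) and 34 mitotic genes (right), one row per gene and one column per array, coloured by the log2 value minus the LG_naive mean of the gene on a scale from -4 to 4. The LG_eTconv and LG_eTreg columns are red for most mitotic rows and for Rrm2, Tyms, Tk1 and Uhrf1, whereas rows such as Mcm4, Pcna, Plk1 and Cdc20 stay pale; Cenpa is blue in LG_eTconv.

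Against LG_naive, 16 of the 34 mitotic genes were higher in LG_eTconv and Cenpa was lower (limma, Benjamini-Hochberg adjusted p under 0.05), and 5 of the 20 replication genes were higher. Over all 17097 genes 13.5% were called in this comparison, 6.45% higher and 7.02% lower. The median log2 difference was 1.04 for the mitotic genes, 0.39 for the replication genes and -0.03 for all genes, and with values below background set to the limit 0.61 and 0.31 for the lists. The 3 LG_eTconv and 3 LG_naive arrays did not overlap for 24 mitotic and 11 replication genes, where 31.1% of all genes were without overlap. These counts hold either direction: LG_eTconv was the lower for Cenpa, Cdt1 and Pcna, and Esco2 and Aurkb were at background in both groups. In LG_eTreg, 20 mitotic genes and 7 replication genes were higher than in LG_naive, against 6.20% of all genes higher, 5.47% lower and 11.7% called. The medians were 1.38 and 0.77 (1.03 and 0.47 at the limit), beside -0.02 for all genes, and arrays did not overlap for 26 mitotic and 10 replication genes (27.1% of all genes). Both comparisons use the same 3 LG_naive arrays. When values under 1.70 were raised to that limit, 10 mitotic genes were called in LG_eTconv and 13 in LG_eTreg: the calls of Ttk, Kif4, Cenpe and Tpx2 were lost in both, those of Mad2l1, Kif11 and Cenpf in LG_eTconv and those of Ccnb2, Aurkb and Bub1, with the replication genes Mcm6, Cdc6 and Gmnn, in LG_eTreg. Without LG_naive 1, LG_eTconv 1 and LG_eTreg 3 together, the calls were 15 mitotic and 6 replication genes in LG_eTconv and 16 and 6 in LG_eTreg.

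**Figure D2:**
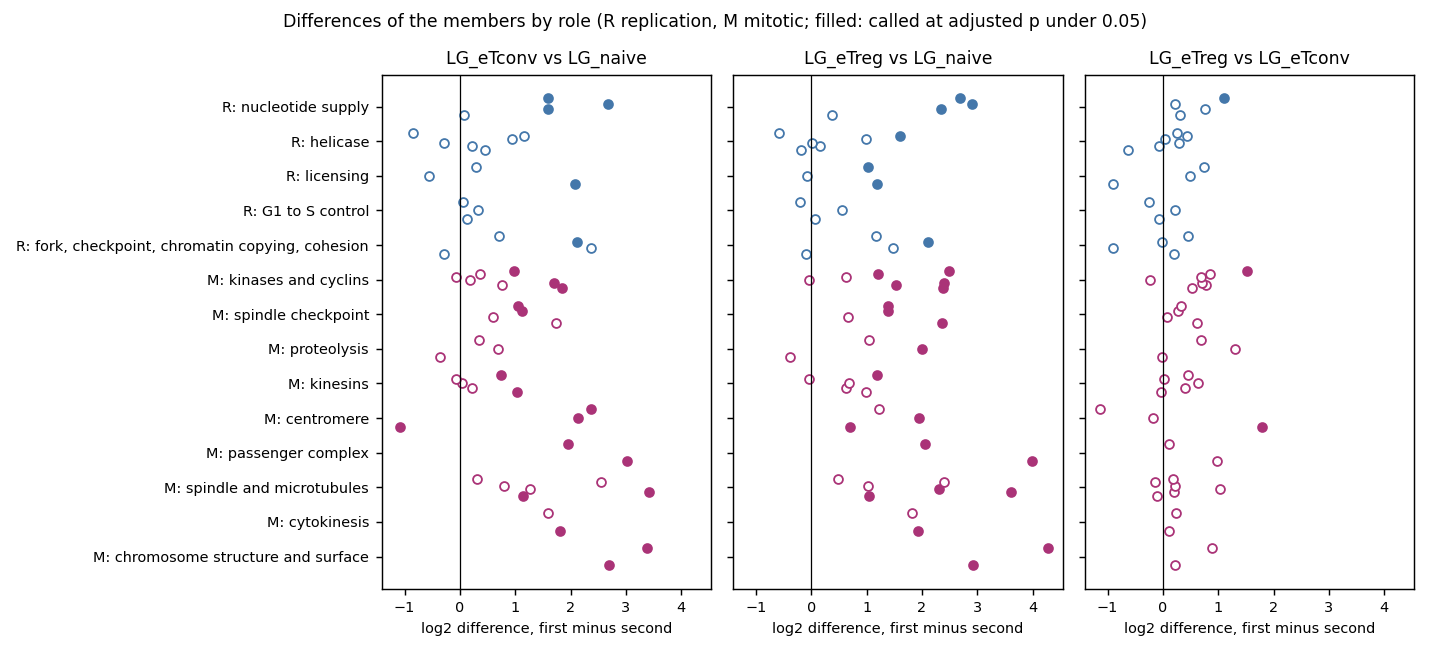
Log2 difference (first minus second group, horizontal axis) of each of the 54 genes in the 3 comparisons of gland subsets, grouped by role, replication in blue and mitosis in purple. Filled points are called at an adjusted p under 0.05; those against LG_naive lie mostly to the right of 0, with filled Cenpa at -1.09 in LG_eTconv, and 3 points are filled in LG_eTreg against LG_eTconv.

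The widest gaps among mitotic genes were in Mki67, Birc5, Nusap1 and Top2a, which mark the chromosomes and spindle of dividing cells. Their promoters and that of Cdk1 are shown because some hold the usual motifs of mitotic genes and some do not; each is the 150 bases before the annotated start (RefSeq, build GRCm38.p6, read 5′ to 3′ on the strand of the gene). Capitals mark a CHR element (TTTGAA on either strand), a CCAAT box (on either strand) or an E2F site (the letters TTCCCGC, those of TTGGCGC, those of TTCGCGC or those of TTGCCGC, on either strand). Mki67 lies at chr7:135716380-135716529 (minus strand), Top2a at chr11:99024190-99024339 (minus), Cdk1 at chr10:69352913-69353062 (minus), Birc5 at chr11:117849087-117849236 (plus) and Nusap1 at chr2:119618148-119618297 (plus).
Mki67: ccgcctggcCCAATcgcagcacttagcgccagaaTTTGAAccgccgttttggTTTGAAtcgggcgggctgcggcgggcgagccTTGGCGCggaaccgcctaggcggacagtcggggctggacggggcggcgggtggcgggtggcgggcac
Top2a: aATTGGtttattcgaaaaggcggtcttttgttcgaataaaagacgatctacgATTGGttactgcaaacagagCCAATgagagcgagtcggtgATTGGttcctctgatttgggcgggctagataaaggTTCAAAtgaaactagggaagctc
Cdk1: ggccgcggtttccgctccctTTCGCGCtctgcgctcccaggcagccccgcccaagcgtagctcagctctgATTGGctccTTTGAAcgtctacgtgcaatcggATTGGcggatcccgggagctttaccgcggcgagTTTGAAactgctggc
Birc5: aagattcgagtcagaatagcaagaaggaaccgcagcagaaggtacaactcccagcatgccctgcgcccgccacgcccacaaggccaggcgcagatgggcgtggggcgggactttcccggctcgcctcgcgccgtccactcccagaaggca
Nusap1: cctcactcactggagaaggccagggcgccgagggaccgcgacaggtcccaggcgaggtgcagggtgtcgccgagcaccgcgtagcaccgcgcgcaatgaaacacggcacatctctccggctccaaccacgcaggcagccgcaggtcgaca
Mki67, Top2a and Cdk1 each held a CHR element and a CCAAT box in this stretch, Mki67 and Cdk1 also an E2F site, and Birc5 and Nusap1 none of these letters.

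Mki67, whose protein coats mitotic chromosomes and is the usual histological marker of division, read 0.92, 2.72 and 1.93 on the LG_naive arrays, 4.22, 5.29 and 6.22 on LG_eTconv and 5.29, 6.41 and 6.69 on LG_eTreg. Every effector array lay above every LG_naive array, and the effector subsets overlapped. The difference from LG_naive was 3.39 (SE 0.62, adjusted p 0.00731) in LG_eTconv and 4.27 (SE 0.62, adjusted p 0.00258) in LG_eTreg, or 10.5-fold and 19.3-fold. Top2a, the topoisomerase that untangles sister chromosomes, read 2.41, 1.88 and 1.61 on LG_naive, 4.03, 4.93 and 5.05 on LG_eTconv and 4.67, 4.97 and 4.99 on LG_eTreg. Its differences were 2.70 (SE 0.30, adjusted p 4.5e-04) and 2.91 (SE 0.30, adjusted p 3.5e-04), with no overlap against LG_naive.

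Birc5 encodes survivin, a subunit of the chromosomal passenger complex that corrects faulty spindle attachments. It read 1.96, 0.92 and 0.53 on LG_naive, 3.59, 4.46 and 4.41 on LG_eTconv and 4.97, 4.86 and 5.55 on LG_eTreg. The groups did not overlap in any pair, and the difference from LG_naive was 3.02 (SE 0.39, adjusted p 0.00118) in LG_eTconv and 3.99 (SE 0.39, adjusted p 2.9e-04) in LG_eTreg. Cdca8, which encodes borealin of the same complex, was at 1.44 ± 0.10 in LG_naive, 3.39 ± 0.76 in LG_eTconv and 3.50 ± 0.02 in LG_eTreg (mean ± SD, n = 3), with adjusted p of 0.0038 and 0.00342. Aurkb, the kinase of the complex, was at background on all LG_naive and LG_eTconv arrays and read 1.59, 0.75 and 1.65 on LG_eTreg, 2 of them above background. It was called higher in LG_eTreg than in LG_naive (adjusted p 0.0122), and because the level lay so close to the limit no fold is given.

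Among 6 spindle and microtubule genes, 2 were higher in LG_eTconv and 3 in LG_eTreg. Nusap1, a microtubule-bundling protein of the spindle, read 0.41, 1.12 and 1.12 on LG_naive, all at background, 3.55, 4.62 and 4.70 on LG_eTconv and 4.14, 4.82 and 4.54 on LG_eTreg. It was at least 7.21-fold higher in LG_eTconv (adjusted p 2.7e-04; means 4.29 and 0.88) and at least 8.31-fold higher in LG_eTreg (adjusted p 2.4e-04; mean 4.50). Prc1, which crosslinks the central spindle, averaged 2.83 ± 0.41 in LG_naive, 4.09 ± 0.58 in LG_eTconv and 5.13 ± 0.49 in LG_eTreg. It passed in LG_eTreg (2.30, SE 0.36, adjusted p 0.00364) and not in LG_eTconv (1.27, SE 0.36, adjusted p 0.052), where it passed without LG_eTconv 1 (1.60, adjusted p 0.0197) or LG_eTreg 2 (1.27, adjusted p 0.0428) and where another probe set of the gene gave 2.20 (adjusted p 0.0102 over all probe sets).

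Tpx2, which activates Aurora A on the spindle, was at background in LG_naive and at least 1.72-fold higher in LG_eTconv (adjusted p 0.0225; means 2.23 and 1.08) and at least 1.59-fold higher in LG_eTreg (adjusted p 0.04; mean 2.11). Its call in LG_eTconv was lost without LG_naive 2 or LG_naive 3 (adjusted p 0.0771 and 0.0579), and in LG_eTreg without LG_naive 1, 2 or 3 (0.065, 0.124 and 0.093), LG_eTconv 1 (0.0531), LG_eTreg 2 (0.126) or LG_eTreg 3 (0.103). Hmmr, a spindle-associated hyaluronan receptor, varied widely within groups: it read 3.56, 3.99 and 1.20 on LG_eTconv and 2.61, 3.77 and 1.93 on LG_eTreg, against -0.04, 0.68 and 0.47 on LG_naive. It did not pass in either comparison (adjusted p 0.0542 and 0.0756), although the arrays did not overlap. Without LG_eTconv 3 it passed in both (adjusted p 0.0049 and 0.0139). Its other probe sets differed by -0.04 to 0.48 in LG_eTconv and by 0.01 to 0.65 in LG_eTreg, none of them called. Tacc3, which tracks spindle microtubules, and Stmn1, a microtubule destabiliser also made in non-dividing cells, had adjusted p of 0.155 or more. Stmn1 read 7.33, 8.10 and 8.06 on LG_naive, 7.96 to 8.25 on LG_eTconv and 8.23 to 8.43 on LG_eTreg.

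Of 7 kinases and cyclins, 3 were higher in LG_eTconv and 5 in LG_eTreg. Ccna2, cyclin A, which drives both S phase and entry into mitosis, read 2.49, 2.66 and 1.87 on LG_naive, 3.90, 4.22 and 4.43 on LG_eTconv and 4.80, 4.96 and 4.38 on LG_eTreg. The differences from LG_naive were 1.84 (SE 0.24, adjusted p 0.00132) and 2.37 (SE 0.24, adjusted p 3.7e-04), without overlap. Cdk1, the kinase that mitotic cyclins activate, read 1.23, 1.90 and 2.35 on LG_naive, 2.81, 3.83 and 3.92 on LG_eTconv and 4.33, 4.25 and 4.09 on LG_eTreg. It was higher by 1.69 (adjusted p 0.0126) and 2.39 (adjusted p 0.00251), both with SE 0.35, and the call in LG_eTconv was lost without LG_eTconv 2 (adjusted p 0.0527). Ccnb2, a B-type cyclin, averaged 1.89 ± 0.21, 2.64 ± 0.57 and 3.42 ± 0.54 in LG_naive, LG_eTconv and LG_eTreg. It passed in LG_eTreg alone of the comparisons with LG_naive (1.53, adjusted p 0.0206, against 0.76 and 0.209 in LG_eTconv), and that call was lost without LG_naive 1 (adjusted p 0.0638), LG_naive 3 (0.0618), LG_eTreg 2 (0.0735) or LG_eTreg 3 (0.0654).

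Plk1 and Aurka, mitotic kinases of the centrosome and spindle, passed in neither comparison. Plk1 read 1.33, 1.80 and 2.06 on LG_naive, 1.89, 1.99 and 1.87 on LG_eTconv and 1.78, 1.40 and 1.87 on LG_eTreg, within each other's range. Its 95% interval for the difference ran from -0.27 to 0.64 in LG_eTconv and from -0.51 to 0.41 in LG_eTreg, and at levels this near the background limit a difference may be understated. Aurka was above background on 4 of the 9 gland arrays.

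The spindle checkpoint genes hold cells in metaphase until all chromosomes are attached, and 2 of 4 were higher in LG_eTconv and 3 in LG_eTreg. Mad2l1 averaged 3.29 ± 0.52 in LG_naive, 4.35 ± 0.24 in LG_eTconv and 4.67 ± 0.25 in LG_eTreg, higher by 1.05 (adjusted p 0.0306) and 1.38 (adjusted p 0.0101). Its LG_eTconv call was lost without LG_naive 2 (adjusted p 0.0604), LG_naive 3 (0.0725), LG_eTconv 1 (0.105), LG_eTconv 3 (0.085) or LG_eTreg 2 (0.0503). Ttk, the kinase that starts the checkpoint signal, was at background in LG_naive (mean 0.63) and at 1.75 ± 0.44 and 2.02 ± 0.31 in the effector subsets, at least 1.24-fold (adjusted p 0.0165) and at least 1.49-fold higher (adjusted p 0.00658); the former call was lost without LG_naive 3 (adjusted p 0.0632). Bub1 read -0.21, -0.63 and 1.22 on LG_naive, all at background, 0.60, 2.28 and 2.71 on LG_eTconv and 2.0, 3.03 and 2.40 on LG_eTreg. It passed in LG_eTreg (at least 2.05-fold, adjusted p 0.0477), and the call was lost without LG_naive 1 (adjusted p 0.124), LG_naive 2 (0.145), LG_eTconv 2 (0.0723), LG_eTreg 1 (0.0756), LG_eTreg 2 (0.145) or LG_eTreg 3 (0.101). Without LG_eTconv 1, Bub1 also passed in LG_eTconv (adjusted p 0.0344). Bub1b, a subunit of the checkpoint inhibitor of Cdc20, did not pass (adjusted p 0.194 and 0.163); in LG_eTreg it passed without LG_eTconv 3 (0.0149) and in a fit of only the 6 arrays compared (0.0294).

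Of 3 genes that act in the destruction of mitotic proteins, Ube2c was higher in LG_eTreg. Ube2c, the ubiquitin carrier of the anaphase-promoting complex, read 1.75, 1.49 and 2.32 on LG_naive, 2.43, 2.5 and 2.69 on LG_eTconv and 3.12, 3.99 and 4.42 on LG_eTreg, without overlap between any groups. It passed in LG_eTreg (1.99, SE 0.33, adjusted p 0.00495) and not in LG_eTconv (0.69, SE 0.33, adjusted p 0.247). Cdca3 differed by 1.03 in LG_eTreg (adjusted p 0.0579), and passed without LG_naive 1 (1.30, adjusted p 0.02). Cdc20, the activator of that complex, had a mean of 2.19 ± 0.66 in LG_naive, 1.83 ± 0.21 in LG_eTconv and 1.81 ± 0.22 in LG_eTreg, with 95% intervals of -1.06 to 0.33 and -1.08 to 0.31 for the differences.

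Of 5 kinesins, the motors that slide spindle microtubules and move chromosomes, Kif11 and Kif4 were called in LG_eTconv and Kif4 in LG_eTreg. Kif11 was at background in LG_naive (mean 1.26) and averaged 2.29 ± 0.56 and 2.26 ± 0.30 in the effector subsets, at least 1.80-fold higher in LG_eTconv (adjusted p 0.0479) and at least 1.76-fold in LG_eTreg (adjusted p 0.0612, and 0.0179 without LG_eTconv 3). The LG_eTconv call was kept without LG_eTconv 1 and lost without any other single array (LG_naive 1, 0.0565; LG_naive 2 and LG_naive 3, 0.134 each; LG_eTconv 2, 0.0883; LG_eTconv 3, 0.092; LG_eTreg 1, 0.0698; LG_eTreg 2, 0.0523; LG_eTreg 3, 0.0551). Kif4, which organises mitotic chromosomes, was at 0.65 ± 0.22, at background, in LG_naive, 1.39 ± 0.25 in LG_eTconv (adjusted p 0.0288) and 1.83 ± 0.22 in LG_eTreg (at least 1.31-fold, adjusted p 0.00328). Its LG_eTconv call was lost without LG_naive 2 (adjusted p 0.0916), LG_naive 3 (0.0628), LG_eTconv 2 (0.0593) or LG_eTconv 3 (0.0889). Kif20a and Kif22 had adjusted p from 0.381 to 0.974.

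Cytokinesis, the splitting of the cell, was represented by Racgap1 and Ect2, partners in activating the contractile ring. Racgap1 read 1.67, 2.24 and 1.72 on LG_naive, 3.43, 4.01 and 3.62 on LG_eTconv and 4.11, 4.05 and 3.24 on LG_eTreg. It was higher by 1.81 (adjusted p 0.00257) and 1.92 (adjusted p 0.00219), both with SE 0.27 and without overlap. Ect2 read 1.05, 2.55 and 3.33 on LG_naive and 3.41 to 4.71 on the effector arrays, and did not pass (adjusted p 0.104 and 0.0739). The spread was on the LG_naive side: without LG_naive 3 Ect2 passed in both (adjusted p 0.0396 and 0.0298).

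The 3 centromere genes went different ways. Cenpe, the kinesin that carries chromosomes to the spindle equator, was at background in LG_naive (mean 0.95) and read 2.07, 3.36 and 3.81 on LG_eTconv and 2.94, 2.95 and 2.79 on LG_eTreg, at least 3.11-fold (adjusted p 0.00568) and at least 2.73-fold higher (adjusted p 0.0106). Cenpf, a kinetochore protein made in G2, was at background in LG_naive and read 2.83, 1.87 and 1.89 on LG_eTconv (at least 1.69-fold, adjusted p 0.011) and 1.81, 1.44 and -0.09 on LG_eTreg (adjusted p 0.159, and 0.00863 without LG_eTreg 3). Cenpa, the histone H3 variant that marks every centromere throughout the cell cycle, read 5.60, 5.65 and 5.55 on LG_naive, 4.41, 4.43 and 4.68 on LG_eTconv and 6.28, 6.20 and 6.41 on LG_eTreg. No arrays overlapped between any groups: Cenpa fell by 1.09 in LG_eTconv (SE 0.11, adjusted p 2.9e-04) and was higher by 0.70 in LG_eTreg (SE 0.11, adjusted p 0.00406). Another probe set of Cenpa differed by -2.15 in LG_eTconv (adjusted p 0.0063 over all probe sets) and by -0.50 in LG_eTreg (adjusted p 0.537), so the lower level in LG_eTconv was seen by both and the higher level in LG_eTreg by the brighter alone; with the mean of both the LG_eTreg difference was 0.10 (adjusted p 0.843).

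**Figure D3:**
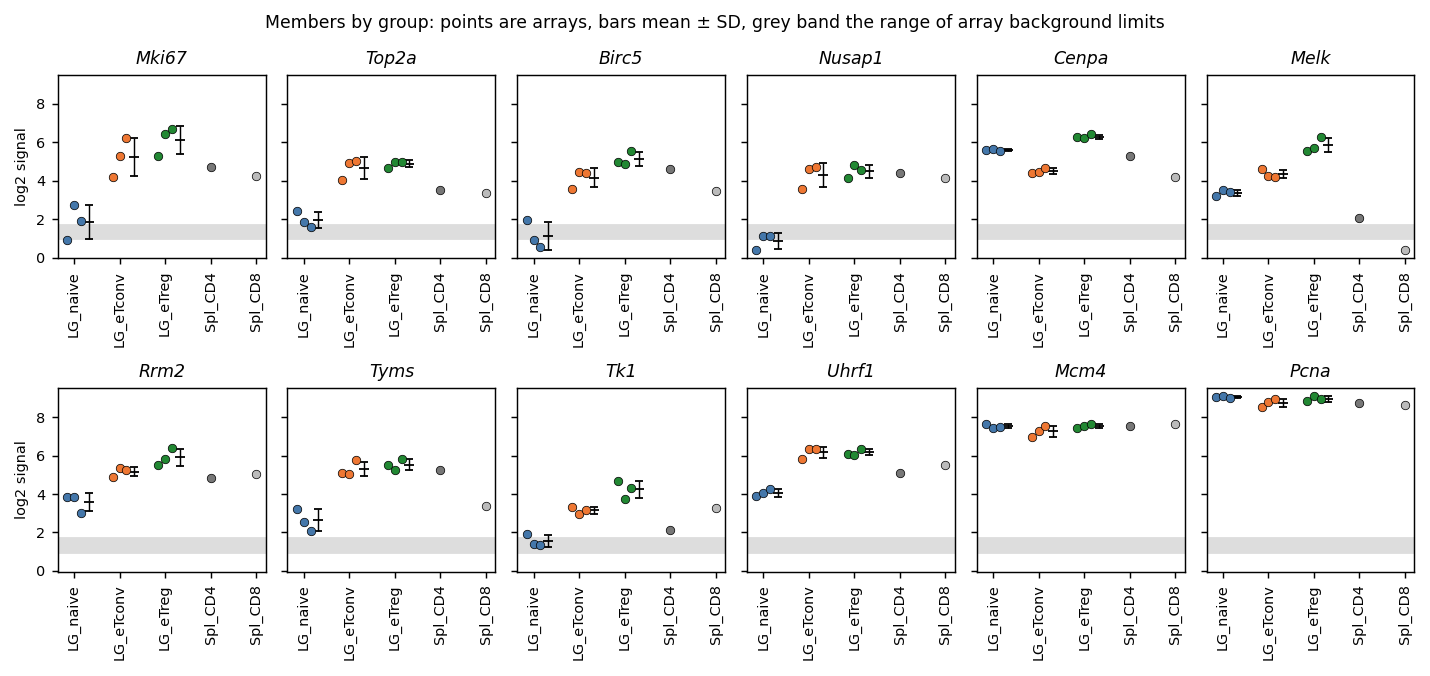
Log2 signal of 12 of the 54 genes on each array (points), with the mean and SD of the 3 arrays of each gland subset (bars) and the range of the array background limits (grey band, 0.945 to 1.70); the upper row holds mitotic genes and the lower row replication genes. Mki67, Top2a, Birc5 and Nusap1 step up from LG_naive to both effector subsets, Cenpa has its lowest gland values in LG_eTconv, and Mcm4 and Pcna have nearly level points.

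Replication genes split by role. Those that supply nucleotides were higher in both effector subsets in 3 of 4 cases, whereas the subunits of the replicative helicase mostly did not pass. The promoters of Mcm6, Uhrf1 and Cdc6, which were called in at least 1 comparison and hold E2F sites, are shown as above: Mcm6 at chr1:128359706-128359855 (minus strand), the first of 2 starts of Uhrf1 at chr17:56303187-56303336 (plus) and Cdc6 at chr11:98908001-98908150 (plus).
Mcm6: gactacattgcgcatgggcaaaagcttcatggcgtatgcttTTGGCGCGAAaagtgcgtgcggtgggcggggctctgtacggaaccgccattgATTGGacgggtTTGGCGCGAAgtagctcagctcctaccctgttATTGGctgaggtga
Uhrf1: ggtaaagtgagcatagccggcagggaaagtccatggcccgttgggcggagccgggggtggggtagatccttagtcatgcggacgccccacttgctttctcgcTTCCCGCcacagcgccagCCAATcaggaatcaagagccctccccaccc
Cdc6: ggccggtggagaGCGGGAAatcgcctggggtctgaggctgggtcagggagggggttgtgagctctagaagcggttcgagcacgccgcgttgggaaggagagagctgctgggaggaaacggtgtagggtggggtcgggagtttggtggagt
Both longer runs of capitals in Mcm6 hold a pair of overlapping E2F sites, one on each strand, and the Uhrf1 and Mcm6 stretches also hold CCAAT boxes.

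Tyms, thymidylate synthase, which makes the thymidine nucleotide, read 3.24, 2.56 and 2.09 on LG_naive, 5.11, 5.06 and 5.75 on LG_eTconv and 5.49, 5.25 and 5.85 on LG_eTreg. It was higher by 2.67 (adjusted p 6.4e-04) and 2.90 (adjusted p 5.0e-04), both with SE 0.31, or 6.38-fold and 7.44-fold. Tk1, the thymidine kinase of S phase, read 1.92, 1.41 and 1.34 on LG_naive, 3.31, 2.93 and 3.19 on LG_eTconv and 4.66, 3.75 and 4.30 on LG_eTreg, higher by 1.59 (adjusted p 0.00324) and 2.68 (adjusted p 2.1e-04). Rrm2, the cell-cycle-regulated subunit of ribonucleotide reductase, read 3.83, 3.83 and 3.04 on LG_naive, 4.89, 5.33 and 5.24 on LG_eTconv and 5.53, 5.81 and 6.37 on LG_eTreg. None of these 3 genes overlapped between LG_naive and an effector subset. Rrm2 was higher by 1.59 (adjusted p 0.00602) and 2.34 (adjusted p 8.8e-04), and its LG_eTconv difference was 0.81 when its probe sets were averaged (adjusted p 0.106). Rrm1, the partner subunit with a steadier level, read 4.63, 4.58 and 4.64 on LG_naive and 4.30 to 5.22 on the effector arrays, with 95% intervals of -0.37 to 0.50 in LG_eTconv and -0.06 to 0.81 in LG_eTreg.

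The 6 Mcm genes encode the ring that unwinds DNA at the fork. Mcm6 read 6.56, 5.52 and 6.22 on LG_naive, 6.61, 7.35 and 7.83 on LG_eTconv and 7.07, 8.11 and 7.92 on LG_eTreg, without overlap against LG_naive. It passed in LG_eTreg (1.60, SE 0.40, adjusted p 0.0365) and not in LG_eTconv (1.16, SE 0.40, adjusted p 0.104). The call was lost without LG_naive 2 (adjusted p 0.11), LG_naive 3 (0.0869), LG_eTconv 2 (0.062), LG_eTreg 2 (0.117) or LG_eTreg 3 (0.101). Mcm5 averaged 2.95 ± 0.28, 3.89 ± 0.58 and 3.93 ± 0.10 and just missed in both (adjusted p 0.0546 and 0.0529); without LG_eTconv 1 it passed in both (0.0222 and 0.0319), and without LG_eTconv 2 in LG_eTreg (0.0112). Mcm4 read 7.65, 7.44 and 7.51 on LG_naive, 6.98, 7.26 and 7.54 on LG_eTconv and 7.43, 7.54 and 7.64 on LG_eTreg, with overlapping groups and 95% intervals of -0.62 to 0.07 and -0.34 to 0.35. Mcm2 and Mcm3 had intervals within -0.81 to 1.08, and Mcm7, which spread from 3.65 to 5.80 on LG_eTconv, had one of -2.10 to 0.41 there.

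Licensing genes load that ring onto origins. Cdc6, the loader, read 1.15, 1.61 and 1.57 on LG_naive, 4.08, 2.93 and 3.54 on LG_eTconv and 2.85, 2.33 and 2.69 on LG_eTreg, without overlap between any groups. It was higher by 2.07 in LG_eTconv (SE 0.29, adjusted p 0.00158) and by 1.18 in LG_eTreg (SE 0.29, adjusted p 0.0315). The LG_eTreg call was lost without LG_naive 1, 2 or 3 (adjusted p 0.093, 0.0615 and 0.0707), LG_eTconv 3 (0.0529), LG_eTreg 1 (0.0999) or LG_eTreg 3 (0.0823). Gmnn, geminin, which blocks a new round of licensing after S phase, averaged 2.89 ± 0.45, 3.18 ± 0.32 and 3.92 ± 0.23 and passed in LG_eTreg (1.03, SE 0.25, adjusted p 0.0336). That call was lost without LG_naive 2 (0.108), LG_naive 3 (0.113), LG_eTconv 2 (0.0581), LG_eTreg 1 (0.0716), LG_eTreg 2 (0.11) or LG_eTreg 3 (0.057). Cdt1, the loader that geminin inhibits, read 8.49, 8.30 and 8.13 on LG_naive, 7.89, 7.56 and 7.79 on LG_eTconv and 8.48, 8.02 and 8.18 on LG_eTreg; it was -0.56 in LG_eTconv without overlap (adjusted p 0.0527, and 0.0411 without LG_eTreg 1) and -0.08 in LG_eTreg.

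Uhrf1, which carries DNA methylation over to the new strand, read 3.88, 4.04 and 4.27 on LG_naive, 5.84, 6.35 and 6.34 on LG_eTconv and 6.10, 6.05 and 6.34 on LG_eTreg. The differences of 2.11 (adjusted p 8.9e-05) and 2.10 (adjusted p 1.1e-04), both with SE 0.17, had the smallest adjusted p of the 20 replication genes in each comparison. Pcna, the sliding clamp of the fork, read 9.02, 9.09 and 9.01 on LG_naive, 8.52, 8.79 and 8.94 on LG_eTconv and 8.81, 9.09 and 8.94 on LG_eTreg, with 95% intervals of -0.59 to 0.01 and -0.39 to 0.20. Chek1, the kinase of the replication checkpoint, spread widely: 0.25, 1.89 and 1.51 on LG_naive, 2.52, 4.49 and 3.77 on LG_eTconv and 3.43, 3.42 and 1.22 on LG_eTreg, with adjusted p of 0.0737 (0.0297 without LG_eTreg 3) and 0.29. Esco2, the acetyltransferase that ties sister chromatids, was above background on 1 of the 9 gland arrays, and passed in LG_eTreg without LG_eTreg 3 alone (adjusted p 0.0387, otherwise 0.0879). The G1 to S regulators Ccne1, Ccne2 and E2f1 had adjusted p from 0.246 to 0.947 against LG_naive, and unadjusted p above 0.05 as well; E2f1 was at background on all LG_eTreg arrays.

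The effector subsets were then set against each other. Of the 34 mitotic genes Melk and Cenpa were higher in LG_eTreg than in LG_eTconv, and of the 20 replication genes Tk1 was, where 5.70% of all genes were called, 2.94% higher and 2.76% lower. The median log2 difference was 0.30 for mitotic genes, 0.22 for replication genes and 0.01 for all genes, and arrays did not overlap for 9 mitotic and 6 replication genes (21.5% of all genes). Both lists thus held shares of calls near the background. Melk, a kinase that peaks in mitosis, read 3.20, 3.51 and 3.42 on LG_naive, 4.59, 4.25 and 4.20 on LG_eTconv and 5.56, 5.72 and 6.29 on LG_eTreg. The groups formed 3 separate steps: LG_eTconv was higher than LG_naive by 0.97 (SE 0.20, adjusted p 0.0145, lost without LG_eTconv 1 at 0.0545), LG_eTreg than LG_naive by 2.48 (adjusted p 1.0e-04) and LG_eTreg than LG_eTconv by 1.51 (SE 0.20, adjusted p 0.00312). Cenpa was higher in LG_eTreg than in LG_eTconv by 1.79 (SE 0.11, adjusted p 4.1e-05), and its other probe set by 1.65 (adjusted p 0.0448 over all probe sets).

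Tk1 was higher by 1.10 in LG_eTreg than in LG_eTconv (SE 0.25, adjusted p 0.0396). That call was lost without LG_naive 2 (adjusted p 0.062), LG_naive 3 (0.0599), LG_eTconv 1 (0.0844), LG_eTconv 2 (0.143), LG_eTconv 3 (0.104), LG_eTreg 1 (0.0963) or LG_eTreg 3 (0.108). Without LG_eTconv 2, Cdc6 passed with the opposite sign (-1.19, adjusted p 0.041); over all arrays its difference was -0.90 (SE 0.29, adjusted p 0.14). Ube2c differed by 1.30 (adjusted p 0.0612) and passed without LG_eTreg 1 (1.66, adjusted p 0.0111), and Aurkb, at background in LG_eTconv, passed without LG_eTreg 2 (adjusted p 0.00638, otherwise 0.0906). For Mki67 the 95% interval of the difference ran from -0.54 to 2.31, for Top2a from -0.47 to 0.89 and for Uhrf1 from -0.41 to 0.39.

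Replication and mitotic genes were compared array by array, as the median over each list of the log2 value minus the LG_naive mean of the gene. On the LG_eTconv arrays the mitotic median was 0.69, 0.86 and 1.31 and the replication median 0.20, 0.46 and 0.60. On LG_eTreg they were 1.20, 1.49 and 1.66 against 0.68, 0.88 and 0.57. The mitotic median was the higher on all 6 effector arrays, by 0.40 to 0.71 on LG_eTconv and by 0.52 to 1.09 on LG_eTreg. On the LG_naive arrays, which set the zero, the gap was -0.06, -0.0050 and 0.08. Pooled over the gland subsets, LG_naive included, the SD within groups was 0.20. The spread was narrowest on LG_naive and widest on LG_eTreg. The gap was widest on LG_eTreg 3, where 18S was also highest. In the fitted differences it was 0.65 in LG_eTconv and 0.61 in LG_eTreg, and in LG_eTconv it fell to 0.29 with values below background set to the limit and to 0.36 with the mean of all probe sets of a gene. Among genes of the same pathways outside the 54, the medians in LG_eTconv were 0.36 for 50 other mitotic genes and 0.33 for 37 other replication genes, and 0.01 against 0.33 with values below background set to the limit. In LG_eTreg they were 0.70 against 0.21, and 0.53 against 0.21 at the limit. Because the genes were picked with earlier results of these arrays known, no test was made of the lists.

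**Figure D4:**
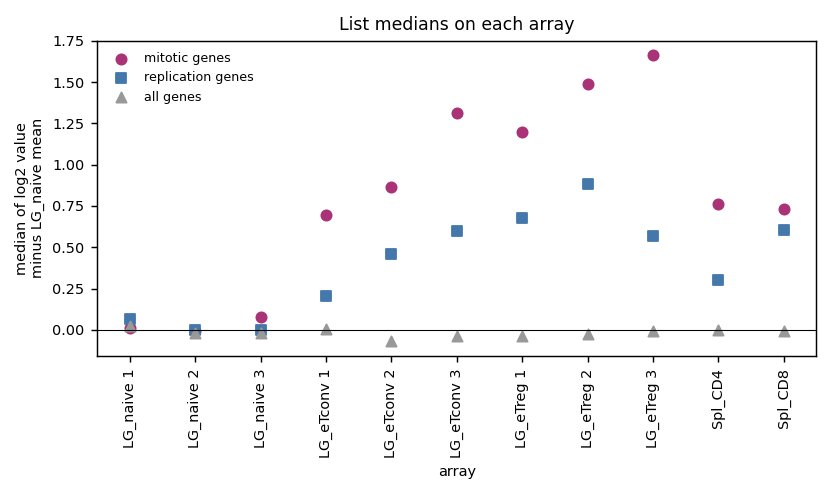
Median over 34 mitotic genes (circles), 20 replication genes (squares) and all 17097 genes (triangles) of the log2 value minus the LG_naive mean of the gene, on each of the 11 arrays. The mitotic median lies above the replication median on the 6 effector arrays and both spleen arrays, while the median over all genes stays within -0.07 to 0.02.

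The spleen arrays gave a reference for these levels, without a test since each spleen population had 1 array. Markers of other cells differed there too. On Spl_CD4 and Spl_CD8 the sums were 722 and 1239 for B and plasma cells and 1033 and 1345 for dendritic cells. They were 972 and 1058 for monocytes and macrophages and 69.7 and 37.3 for lacrimal epithelium. The part of these cells in the spleen differences was not tested. A gene was counted when it differed by at least 1 on the log2 scale with all 3 gland arrays on the same side. Against Spl_CD4, LG_naive was lower for 15 of 34 mitotic genes and higher for Melk, and lower for 4 of 20 replication genes (Rrm2, Tyms, Chek1 and Uhrf1), beside 4.57% of all genes lower and 4.67% higher. The widest of these gaps were Hmmr at 4.56 on Spl_CD4 against a mean of 0.37, Nusap1 at 4.41 against 0.88 and Birc5 at 4.61 against 1.14. With the mean of all probe sets of a gene the replication count was 0. LG_eTconv was higher than Spl_CD4 for 4 mitotic genes (Melk, Cenpe, Cdca8 and Top2a) and lower for Kif22 and Hmmr, and higher for 2 replication genes (Cdc6 and Uhrf1) and lower for Mcm7, where 6.56% of all genes were higher and 6.62% lower. LG_eTreg was higher for 7 mitotic and 6 replication genes (6.44% of all genes) and lower for Kif22 and Hmmr (5.98%).

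Against Spl_CD8, LG_naive was lower for 13 mitotic and 8 replication genes (5.43% of all genes) and higher for Melk, Cenpa and Ccne2 (6.11%). LG_eTconv was higher for 7 mitotic and 2 replication genes (7.67%) and LG_eTreg for 13 and 4 (7.69%); lower were 4 and 3 in LG_eTconv (7.76%) and 2 and 3 in LG_eTreg (7.06%). Ordered by level, Mki67 went from 1.85 in LG_naive to 4.22 on Spl_CD8, 4.71 on Spl_CD4, 5.24 in LG_eTconv and 6.13 in LG_eTreg, and both spleen values lay within 1 SD of the LG_eTconv mean or just past it (SD 1.0). Racgap1 and Cdca3 had their highest values of the 11 arrays on Spl_CD8, at 5.0 and 4.39. Melk behaved otherwise: it was 2.06 on Spl_CD4 and 0.42 on Spl_CD8, below all 9 gland arrays. Between the spleen arrays, Spl_CD8 was higher than Spl_CD4 for 2 mitotic and 3 replication genes (3.75% of all genes) and lower for 7 and 2 (4.50%), among them Hmmr (1.14 against 4.56) and Cdk1 (1.94 against 4.38).

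Genes of the same pathways outside the 54 were described from 4 lists. Up to 4 called genes with the largest change are named per list and comparison. A gene named for a single subset may thus have been called in the other as well. Over all genes 6.45% were called higher and 7.02% lower in LG_eTconv, and 6.20% and 5.47% in LG_eTreg. Of 37 other replication genes, 6 were higher and 4 lower in LG_eTconv and 8 higher and 4 lower in LG_eTreg. Dtl, the ubiquitin ligase adaptor that removes Cdt1 in S phase, rose from 2.24 ± 1.01 in LG_naive to 5.99 ± 0.56 in LG_eTconv (adjusted p 0.00128) and 5.52 ± 0.39 in LG_eTreg (adjusted p 0.00313). Clspn, claspin, the checkpoint partner of Chek1, was at background in LG_naive and averaged 3.52 and 3.26 (adjusted p 0.00523 and 0.0106), Mcm10 was higher in LG_eTconv by 1.84 (adjusted p 0.00196) and the chromatin remodeller Hells in LG_eTreg by 1.64 (adjusted p 0.0258). Pole2, a subunit of the leading-strand polymerase, went the other way, from 5.59 ± 0.23 in LG_naive to 3.99 ± 0.60 (adjusted p 0.0145) and 3.03 ± 0.51 (adjusted p 0.00146). Of 50 other mitotic genes, 11 were higher in LG_eTconv, and 19 were higher and 1 lower in LG_eTreg. They included Cep55, which acts in the final abscission, by 2.76 (adjusted p 6.5e-04) and 3.19 (adjusted p 3.4e-04), the condensin subunits Ncapg2 in LG_eTconv by 2.90 (adjusted p 0.00281) and Ncapg in LG_eTreg by 3.25 (adjusted p 0.0129), the kinetochore gene Kntc1 in LG_eTconv by 2.38 (adjusted p 0.0237), and Pbk in both and Kif18a in LG_eTreg, which were at background in LG_naive and averaged 2.87 and 3.12 (adjusted p 0.00203 and 0.00146) and 2.80 (adjusted p 0.00184).

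Between the effector subsets, Rfc5 and Rfc1, subunits of the clamp loader, were lower in LG_eTreg by -0.84 (adjusted p 0.00848) and -0.58 (adjusted p 0.0489), and the initiation genes Dbf4 and Orc1 higher by 0.80 (adjusted p 0.0372) and 0.75 (adjusted p 0.0104). Pttg1, securin, was the 1 other mitotic gene called there, higher in LG_eTreg by 0.65 (adjusted p 0.021). Calls between the effector subsets took in 10.8% of the other replication genes and 2% of the other mitotic genes, beside 5.70% of all genes. Of 24 genes of G1 cyclins and E2F control, 5 were higher and 1 lower in LG_eTconv and 5 and 2 in LG_eTreg. These calls were 25% and 29.2% of the list, beside 13.5% and 11.7% of all genes. Cdk6, a G1 kinase, was higher by 2.07 (adjusted p 0.00359) and 2.66 (adjusted p 0.00108), Wee1, the kinase that restrains Cdk1, by 2.43 (adjusted p 1.7e-04) and 2.21 (adjusted p 3.5e-04), the repressor E2f8 by 2.51 (adjusted p 0.0067) and 2.53 (adjusted p 0.00754) and E2f3 in LG_eTreg by 2.60 (adjusted p 0.00111). Ccnd1, cyclin D1, fell by 2.16 in LG_eTconv (adjusted p 0.0152). None of the 24 genes was called between the effector subsets, with differences from -0.69 to 0.98.

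Genes that brake the cycle or mark quiescence moved both ways: of 26, 6 were higher and 5 lower in LG_eTconv and 5 higher and 4 lower in LG_eTreg. These calls were 42.3% and 34.6% of the list, beside 13.5% and 11.7% of all genes. Klf2, a factor of quiescent T cells, fell by 3.33 (adjusted p 0.00103) and by 3.44 (adjusted p 0.00101). Gadd45a was lower in LG_eTconv (-1.73, adjusted p 0.0124) and the inhibitor Cdkn2d in LG_eTreg (-1.65, adjusted p 9.8e-04), whereas Plagl1 was higher in LG_eTconv (3.15, adjusted p 0.00133) and the CDK4/6 inhibitor gene Cdkn2c in both (1.62, adjusted p 0.0196, and 2.11, adjusted p 0.00626). Cdkn1a, which encodes an inhibitor of cyclin-dependent kinases, stood at 5.42 ± 0.10 in LG_naive, 5.27 ± 0.18 in LG_eTconv and 8.00 ± 0.18 in LG_eTreg. Its difference of 2.72 between the effector subsets (SE 0.14, adjusted p 1.3e-05) was in the opposite direction to that of Klf4 (-1.35, adjusted p 0.0205).

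Outside these lists, the 8 genes whose values followed the mean of the mitotic genes most closely over the 9 gland arrays were Phlpp1, Ikzf2, Cd99l2, Cdk17, Capg, Ctla4, Sema6d and Ubash3b, with Pearson r from 0.982 to 0.988. This is a description: the arrays fall into the 3 sorted groups, and a gene that steps from LG_naive to LG_eTconv to LG_eTreg will follow the mean.

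The promoter motifs shown above were counted over all members with a window in the RefSeq promoter table, 300 bases from 250 before to 50 after each annotated start. Of the 54 genes 45 had a window, 4 of them with several. A CHR element, TTTGAA on either strand, was in the window of 22 of 29 mitotic genes (75.9%) and of 1 of 16 replication genes, Mcm2 (6.25%), where 20.2% of the 27025 genes of the table and 15.6% of the 13605 measured ones among them held it. All 22 also held a CCAAT box, which was in 24 of 29 mitotic (82.8%) and 9 of 16 replication windows (56.2%), beside 41.1% of all genes and 42.3% of measured ones. An E2F site was found in 10 of 16 replication (62.5%) and 5 of 29 mitotic genes (17.2%), beside 10.9% of all genes and 16.0% of measured ones, so that the mitotic share lay near that of measured genes. The 31 CHR matches of mitotic genes had a median position of -5 relative to the start, and the 23 E2F matches of replication genes one of -48. Matches were counted in each window, so the same CHR sites of Ect2 and Prc1, whose windows overlap, entered once for each window. All motifs were searched on both strands, and matches on opposite strands can overlap, as in Mcm6.

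The differences were then set beside the motifs. The 22 mitotic genes with a CHR element had a median of 0.89 in LG_eTconv and 1.30 in LG_eTreg, and the 7 without (Birc5, Bub1, Cenpe, Mad2l1, Melk, Nusap1 and Tacc3) 1.74 and 2.35. Among measured genes outside the 54 that held both a CHR element and a CCAAT box, 6.33% were called higher in LG_eTconv and 6.22% in LG_eTreg, beside 6.36% and 6.14% of all such genes with a window. The replication genes with an E2F site had medians of 1.05 and 1.08 and those without (Ccne1, E2f1, Mcm2, Pcna, Tk1 and Tyms) 0.29 and -0.02. Of these replication genes, 3 of the 10 with a site and 2 of the 6 without were called higher in LG_eTconv. In LG_eTreg these counts were 4 and 2. Among measured genes outside the 54 with an E2F site, 6.96% and 7.19% were called higher, beside the 6.36% and 6.14% above. A match says only that the letters are present, and the lack of one only that they are not in this window.

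**Figure D5:**
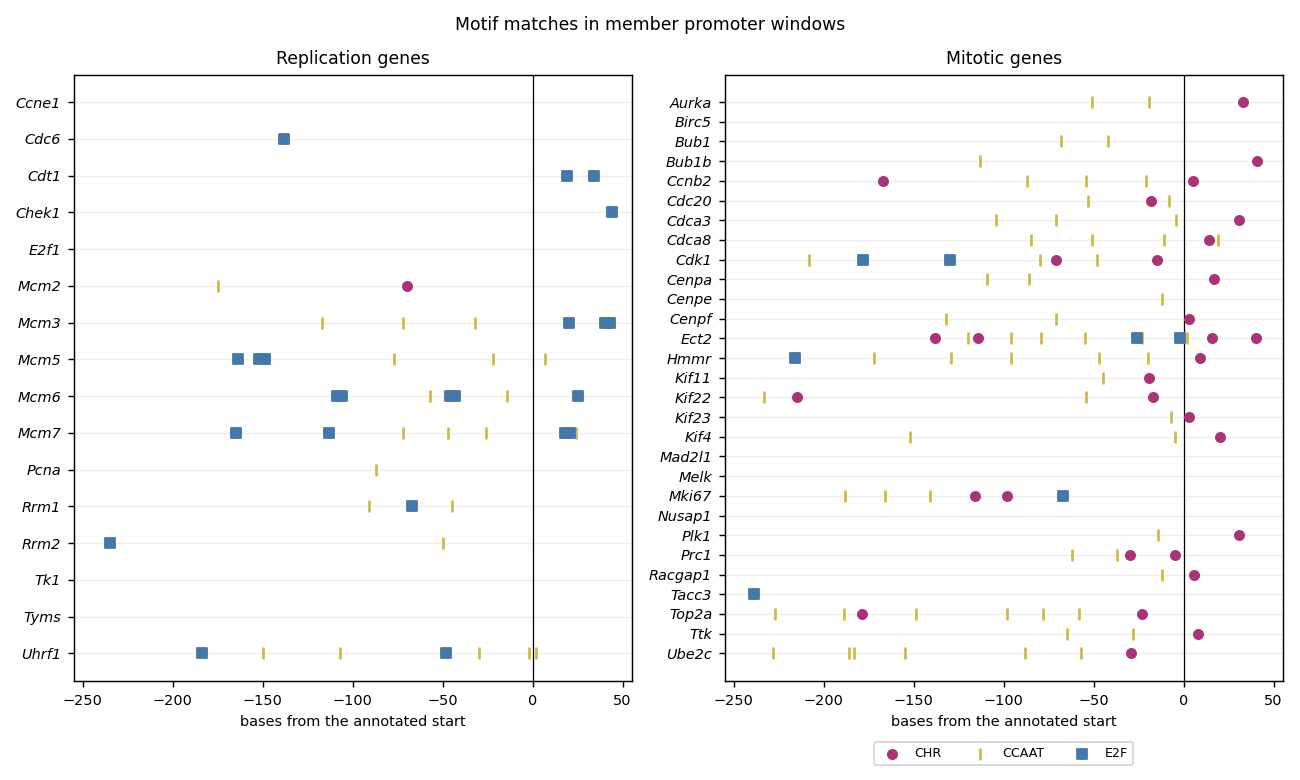
Position of each motif match (bases from the annotated start, horizontal axis) in the promoter windows of 16 replication genes (left) and 29 mitotic genes (right): CHR as circles, CCAAT as ticks and E2F as squares; windows of genes with several starts are drawn on one row. CHR circles sit near the start in 22 mitotic rows and in the Mcm2 row on the left, and E2F squares fill 10 replication rows and 5 mitotic rows.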

How the data were processed

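Each array's labelled RNA was measured on an Affymetrix perfect-match array. Values were deposited as log2 signal, computed by the authors by RMA using Partek software (named without versions in the submitters' processing notes); the log base was inferred from the values. The authors' processing puts all 11 arrays on a common scale. RNA integrity numbers were above 9.1 in all but 1 sample (7.8), which the labels do not tie to a group.

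Of 45141 probe sets, 104 controls were left out; 28898 carried 1 gene symbol, 551 several and 15588 none. Each of 17097 genes was represented by its brightest probe set, by the mean of the 9 gland arrays. Group means were fitted over those 9 arrays with limma 3.58.1 in R 4.3.3 (6 residual degrees of freedom, two-sided, Benjamini-Hochberg over 17097 genes, called at adjusted p under 0.05), and intervals are 95% intervals of that fit. The fit was also run on simulated independent normal values with each gene's own spread and known shifts. These hold no array or background effects, so that run does not bear on the calls given here. Only 3 arrays per group limit the precision.

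Where a gene lay at background on all arrays of a group, "at least" folds compare the brighter group's mean with the mean of the array limits. Spleen arrays entered no test. The text names all 54 members, up to 4 called genes with the largest change per pathway list and comparison, and 8 genes by correlation. The members, pathway lists, marker lists and tests were chosen with earlier results of these data known. The alternatives were the probe set choice, filters and limits on dim values, array scaling, the variance model, array weights, the replicate number as a block, and leaving out arrays.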

Additional observations from a re-analysis of the deposited data

Results flagged for a closer look

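Melk, Cenpa and Tk1 differed between the effector subsets in the direct comparison of LG_eTreg with LG_eTconv (limma, adjusted over all genes). The LG_eTreg minus LG_eTconv difference was 1.51 for Melk (adjusted p 0.00312), 1.79 for Cenpa (adjusted p 4.1e-05) and 1.10 for Tk1 (adjusted p 0.0396). Calls in this comparison took in 5.88% of the mitotic and 5% of the replication genes, near the 5.70% of all genes. For Melk, Cenpa and Tk1 all 3 LG_eTreg arrays lay above all 3 LG_eTconv arrays. Arrays of these subsets did not overlap, in either direction, for 21.5% of all genes. Melk and Cenpa were called under all 20 alternatives, and the call of Tk1 was lost without any 1 of 7 arrays, as given above.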

How the results depend on the processing

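Of the called genes, 7 mitotic and 4 replication genes kept their call under all 20 alternatives in LG_eTconv against LG_naive, 10 and 4 in LG_eTreg, and Melk and Cenpa between the effector subsets. In LG_eTconv the mitotic calls went from 17 to 10 with values below background set to the limit, the replication calls from 5 to 8 without dim genes and 9 with array weights, and the gap between list medians from 0.65 to 0.36 with the mean of all probe sets and 0.29 at the limit. In LG_eTreg, 20 mitotic calls became 13 and 7 replication calls became 4 at the limit, and the gap of 0.61 became 0.90 without dim genes. Between the effector subsets the single replication call became 0 with all probe sets tested, at the limit, with only the 6 arrays compared, with trended and robust moderation and without LG_naive 1, LG_eTconv 1 and LG_eTreg 3 together. The gap of 0.07 turned to -0.0015 at the limit. At an unadjusted p under 0.05 in limma over all gland arrays, 4 replication genes were higher and 2 lower in LG_eTreg than in LG_eTconv. For mitotic genes these counts were 9 and 1. The share of all genes at that unadjusted threshold was not counted, so these counts have nothing to be set against. The 4 replication genes lower in LG_naive than on Spl_CD4 became 0 with the mean of all probe sets. Leaving out each array in turn gave 13 to 17 mitotic and 5 to 6 replication calls and a gap of 0.47 to 0.75 in LG_eTconv, 17 to 23, 4 to 8 and 0.49 to 0.83 in LG_eTreg, and 2 to 3, 0 to 1 and 0.07 to 0.21 between the effector subsets. Over all genes the same fits called 1770 to 2414 in LG_eTconv, 1512 to 1845 in LG_eTreg and 683 to 969 between the effector subsets. Calls under the alternatives named before these fits are given without the count over all genes. The cause of these shifts was not tested. With the replicate number as a block, the mitotic calls were 19, 22 and 3 (Ube2c, adjusted p 0.0334, joined Melk and Cenpa between the effector subsets) and the replication calls 7, 6 and 1, with 2271, 1929 and 906 calls over all genes (2303, 1995 and 974 without), and the gaps stayed 0.65, 0.61 and 0.07. The numbers were not taken as pairs: correlations of same-numbered deviations ran from -0.12 to 0.34 over 10001 genes, and every array correlated best with its own number in LG_eTreg against LG_eTconv alone. Signal near background limits the 13 genes at background on all LG_naive arrays.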
